A study of Mus musculus with 10 samples.

Results

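The rate at which precursor transcripts were processed was compared between Fmr1-knockout and wild-type mouse cortical neurons, separately for each labelling time and then in 1 fit with labelling time as a block. Members were all genes of the deposited rate table whose processing rate was listed above 0 and under 1000 in each of the 4 labelled libraries. This held for 5075 of 8590 genes (59.1%).

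The series compared wild-type and Fmr1-KO neurons of strain FVB.129P2-Pde6b+ Tyrc-ch/AntJ, both taken as dissociated cortices at embryonic day 18 and kept for 14 days in vitro. Cells of both genotypes received 200 µM 5-ethynyluridine (5-EU), a uridine analogue that enters newly made RNA, for 20 or 60 min, and labelled RNA was captured after coupling to biotin. The 10 samples held, for each genotype, 1 labelled library per time, 2 of input RNA and 1 pull-down from cells without label. The labels give no number of embryos or cultures behind a library, so the p-values below measure only the spread between these libraries, which differ in labelling time within a genotype.

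A newly made transcript still carries its introns, and it counts as premature until splicing and 3′-end formation turn it into mature mRNA. INSPEcT, the method after which the rate table is named, describes the premature pool by a synthesis rate that fills it and a processing rate that empties it, so at balance the premature level is the synthesis rate divided by the processing rate. Fmr1 encodes FMRP, an RNA-binding protein known mainly as a repressor of translation of neuronal mRNAs and lost in fragile X syndrome. Rates are printed in the units of the deposited table, whose time unit is not given in the sources used here. A change is knockout minus wild type on the log2 scale, without a pseudocount. "Slower" and "faster" mean a lower or higher processing rate in the knockout.

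Processing rates were missing more often in the knockout. Wild-type libraries had a rate above 0 for 7311 (20 min) and 7341 genes (60 min), knockout libraries for 5852 and 5681. Both wild-type rates and neither knockout rate were listed for 1410 genes, and the reverse held for 168. The members are therefore genes that could be estimated in both genotypes. Another 7 genes had all 4 rates but 1 or more at or over 1000 and were left out: Btg2, Cdca4, F3, Klf6, Mex3b, Tob2 and Zfp280b. The table gives no read counts, so the depth behind a rate is unknown. Of the markers fixed for the labelled cell type, 8 of 18 neuronal genes were in the table, among them Rbfox3, Dcx and Neurod6, while 0 of 10 endothelial markers were. Astrocyte markers were present for 8 of 15, oligodendrocyte lineage markers for 6 of 14 and dividing progenitor markers for 12 of 15. Synthesis rates were summed over the markers that had all 4 of them, which were few. Over 5 neuronal markers the sum was 30.6 and 35.3 in the wild-type libraries (20 and 60 min) and 23.7 and 29.1 in those of the knockout, with Neurod6, given below, making up a large share of the difference. Over 4 interneuron markers it was 8.33 and 9.14 against 7.76 and 11.2, lower at 20 and higher at 60 min. For 4 astrocyte markers it was 9.58 and 4.39 against 9.29 and 4.36, and the 1 oligodendrocyte lineage marker, Olig2, had 18.0 and 12.6 against 20.2 and 13.8. In such bulk samples fewer cells of a type and less RNA per cell cannot be told apart, and the part of these differences in the results was not tested.

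Fmr1 itself was not a member, because its processing rate was listed only at 60 min, at 4.34 (wild type) and 4.72 (knockout). Its synthesis rates were 0.810 and 0.692 for wild type at 20 and 60 min against 2.06 and 1.56 for the libraries labelled Fmr1-KO, higher at both times. These rates therefore do not check the genotype, and "knockout" stands here for the libraries labelled Fmr1-KO. Its paralogue Fxr1 had wild-type rates of 1.83 and 2.35 at 20 and 60 min, and knockout rates of 4.13 and 2.63. Both knockout values of Fxr1 lay above both wild-type values, and the log2 change of 0.67 (SE 0.32) did not pass the test (limma adjusted p = 0.166). Fxr2 had no row in the rate table.

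Most genes had a lower processing rate in the knockout at both labelling times. The median processing rate of the members was 7.61 (20 min) and 7.72 (60 min) in wild-type and 6.32 and 5.74 in knockout libraries, so both knockout medians lay below both wild-type medians. The median log2 change was -0.29 at 20 min and -0.44 at 60 min, and -0.36 in the fit, which is a 1.29-fold lower rate. Of the 5075 genes, 2961 (58.3%) were lower at both times, 1055 (20.8%) were higher at both and 1059 had opposite signs. Differences at 20 and 60 min ranked genes alike, with a Spearman rho of 0.724 over 5075 genes, which share their libraries.

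With labelling time as a block, 1425 genes (28.1% of those tested) had an adjusted p under 0.05 by limma. Of these, 1078 (21.2%) were slower and 347 (6.84%) faster in the knockout. The excess of slower genes went with the general shift: when each library was centred on its median, which moved the median change of all genes to -0.015, 785 genes (15.5%) passed, 383 slower (7.55%) and 402 faster (7.92%). All 383 slower genes of the centred fit were among the 1078, and 331 of its faster genes were among the 347. Without the block 0 genes passed by limma, with 784 at an unadjusted p under 0.05, so each call below rests on comparing libraries within a labelling time. With 1 library left out the fit has no block, and 0 genes passed when the 20 min library of wild type was left out, 7 when its 60 min library was, and 219 and 171 when those of the knockout were. Both labelling times also draw on nearly 1 premature level per genotype, given below, so their agreement overstates replication. The authors' deposited table for processing rate, which tested 5930 genes, likewise had 0 genes with an adjusted p under 0.05 and 857 at an unadjusted p under 0.05. Its log2 changes followed those fitted here with rho = 0.983 over 4988 shared genes.

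**Figure D1:**
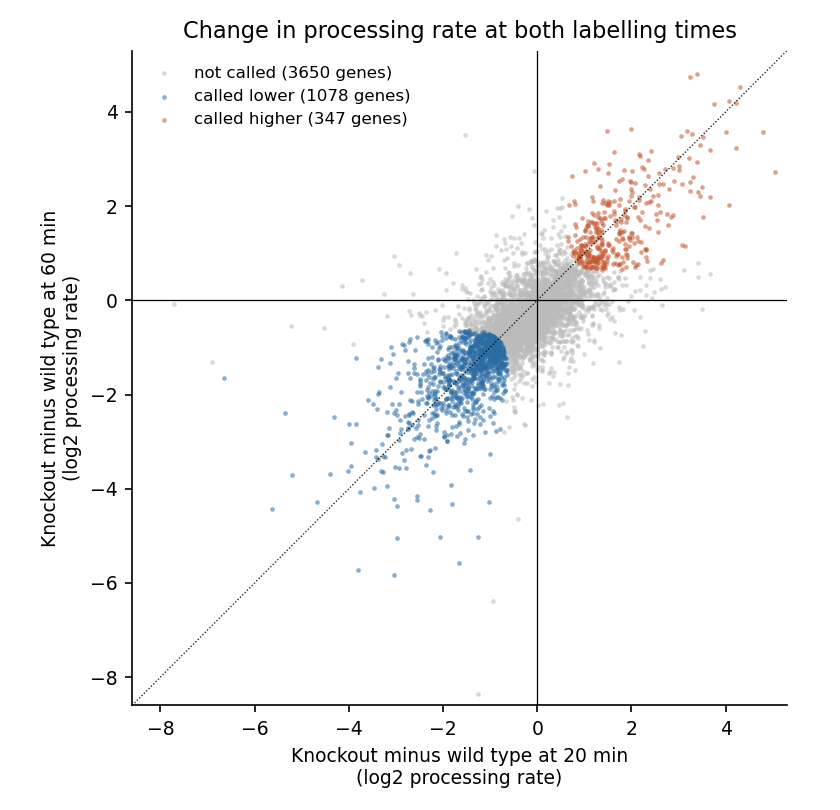
Each point is 1 of the 5075 genes, with the log2 change in processing rate (knockout minus wild type) at 20 min on the horizontal axis and at 60 min on the vertical axis. Blue marks the 1078 genes called lower and red the 347 called higher in the limma fit blocked by labelling time, and the dotted line marks equal change. More points lie below 0 on both axes (2961) than above 0 on both (1055).

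Among the slower genes the median log2 change was -1.33, a 2.51-fold lower rate, and 880 of 1078 changed more than 2-fold. In 916 of them both knockout rates lay below both wild-type rates, a separation found in 35.1% of all genes tested. Among the faster genes the median was 1.42, a 2.67-fold higher rate, and 300 of 347 changed more than 2-fold. In 303 of them both knockout rates lay above both wild-type rates, against 11.5% of all genes tested. At the threshold, Anp32e, a histone chaperone, was the slower gene with the smallest change that passed (log2 change -0.84, limma adjusted p = 0.0499), and Tpm3, a tropomyosin, the nearest that did not (-0.84, limma adjusted p = 0.0502). On the faster side, Zfp687 passed with a change of 0.84 (limma adjusted p = 0.049) and Rpf1, a ribosome production factor, did not with 0.88 (limma adjusted p = 0.0501).

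The 12 genes that slowed most at both labelling times, and that also passed after centring, fell between 10.3-fold and 32.5-fold. Anapc15, a subunit of the anaphase-promoting complex (chr7:101863715-101901849, plus strand, GRCm38), had wild-type processing rates of 17.5 and 5.13 at 20 and 60 min, and knockout rates of 0.355 and 0.239. The lowest wild-type value was thus far above the highest knockout value, and the log2 change was -5.02 (SE 0.35, limma adjusted p = 0.00449). Tprgl, a synaptic vesicle protein (chr4:154157485-154160666, minus strand), went from 15.9 and 9.22 to 0.617 and 0.477 (log2 change -4.48, SE 0.25, limma adjusted p = 0.00449). Ehbp1l1, which binds the small GTPase Rab8 (chr19:5707376-5726317, minus strand), went from 4.06 and 3.13 to 0.289 and 0.0595 (log2 change -4.77, SE 0.47, limma adjusted p = 0.00572). The groups did not overlap in any of the 3 genes, of which Ehbp1l1 differed most between its 2 knockout libraries.

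The other 9 included genes of mitochondrial metabolism, ion transport and DNA repair. Ivd, isovaleryl-CoA dehydrogenase of leucine breakdown, fell from 48.4 and 26.0 to 2.28 and 2.01 (log2 change -4.05). Lonp1, the Lon protease of the mitochondrial matrix, fell from 63.8 and 13.1 to 5.75 and 0.826 (-3.73). The labelling times of Lonp1 lay far apart within each genotype, and the groups were separate. Slc12a4, the potassium-chloride cotransporter KCC1, fell from 17.9 and 12.1 to 1.32 and 0.725 (-3.91). Ercc1, the partner of the XPF nuclease in nucleotide excision repair, fell from 43.1 and 12.2 to 4.34 and 0.987 (-3.47). Utp15, a factor of ribosomal RNA processing, fell from 36.9 and 49.2 to 3.55 and 4.79 (-3.37). Changes of the remaining 4 lay between -3.38 for Tmem161a and -4.46 for Fam105a, with Pnma2 at -3.83 and the kinase gene Pdik1l at -3.74. All 12 had an adjusted p of at most 0.00572 by limma with the block and of at least 0.0909 without it.

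The 11 genes described here among those that sped up most rose between 10.4-fold and 18.5-fold. Mon1a, part of the exchange factor that activates Rab7 (chr9:107888151-107903139, plus strand), rose from wild-type rates of 1.21 and 2.95 at 20 and 60 min to 22.7 and 53.6 (log2 change 4.21, SE 0.23, limma adjusted p = 0.00449). Ift52, a component of intraflagellar transport in cilia (chr2:163017354-163046141, plus strand), rose from 1.94 and 5.00 to 53.4 and 60.0 (log2 change 4.18, SE 0.35, limma adjusted p = 0.00489). In both genes the lowest knockout value lay above the highest wild-type value.

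Nuclear and mitochondrial factors were among the faster genes. Gins4, a subunit of the GINS complex of the replication helicase, rose from 2.23 and 2.40 to 36.1 and 28.7 (log2 change 3.80). Sox8, a transcription factor, rose from 2.73 and 3.15 to 31.4 and 34.8 (3.49). Tomm22, a receptor of the mitochondrial import pore, rose from 1.49 and 1.69 to 16.4 and 16.7 (3.38). The labelling times of these genes lay close together within each genotype. Gpr12, an orphan G protein-coupled receptor with 1 annotated intron, rose from 0.423 and 0.364 to 4.11 and 4.20 (3.40). Polr3gl, a subunit of RNA polymerase III, rose from 1.21 and 0.213 to 12.8 and 5.98 (4.11), and Cuta from 0.659 and 0.422 to 8.93 and 7.55 (3.96). The remaining 3 were D17H6S56E-5 (4.16), Tmem191c (3.99) and Grp (3.73), which encodes gastrin-releasing peptide. All 11 had an adjusted p of at most 0.0059 by limma with the block and of at least 0.0909 without it.

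**Figure D2:**
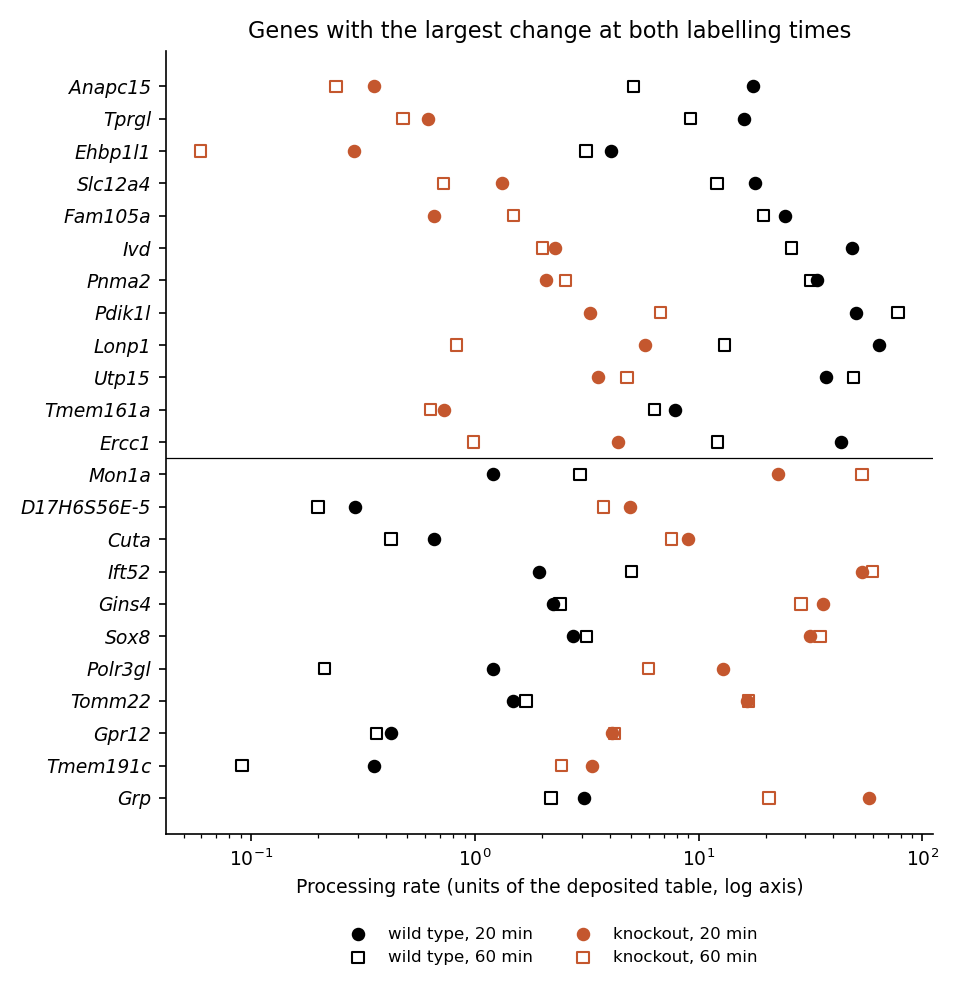
Processing rate in each of the 4 labelled libraries (horizontal log axis, units of the deposited table) for the 12 genes that slowed most, above the line, and 11 of those that sped up most, below it. Black marks wild type and red the knockout, filled circles 20 min and open squares 60 min. In each of the 23 genes the 2 knockout values lie on 1 side of both wild-type values.

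Of these 23 genes, 22 could be placed in the GENCODE M21 annotation of GRCm38, and 9 of them overlap another annotated gene: Anapc15 (with Folr1 and Tomt), Tprgl (Wrap73), Slc12a4, Ercc1 (Cd3eap), Cuta (Phf1), Sox8, Polr3gl, Tmem191c (Pi4ka) and Grp. Whether the authors' counting used strand is not given in the sources used here, so intronic reads of these genes may belong in part to the partner and their rates are uncertain. Leaving out every member that overlaps another annotated gene, an alternative chosen after seeing the data, left 2267 genes with 578 slower and 175 faster calls by limma. Among the genes named elsewhere, this step also left out Fxr1, Zfp687, Rpl15, Rpl23a, Mrpl2, Mrpl24, Mrpl44, Eif2a, Eif2s2 and Zfp646. It left out Taf11, Polr2j, Kcnj9, Slc32a1, Tsc2, Nlgn3, Mcm7, Kif22, Dusp1 and Snhg11 as well, so the same doubt holds for all of these. Introns of the 22 genes summed to a median of 9668 bases, against 25411 over the members, and 21 of the 22 lay below that median.

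The changes in processing rate mirrored changes in the premature level. Premature levels, computed as synthesis over processing rate, were higher in the knockout at both times in 3596 of the 5069 genes with all 4 synthesis rates (70.9%). The median premature level of wild type was 0.144 at both times, that of the knockout 0.183 and 0.184, and the median log2 change was 0.34 at 20 min and 0.35 at 60 min. Of the 1078 slower genes, 1075 had a higher premature level at both times, with a median change of 1.22. Of the 346 faster genes with all synthesis rates, 345 had a lower premature level at both times, with a median change of -1.35. The processing rate is a term of the premature level, so these counts describe how the rates are built and are no separate evidence.

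Synthesis rates of the same genes moved less. Over all genes the SD of the synthesis rate change was 0.613 at 20 min and 0.340 at 60 min. That of the premature level change was 0.860 and 0.931. The median log2 change in synthesis rate was -0.16 among the slower genes and 0.15 among the faster ones. The premature level differed by more than the synthesis rate did in 1015 of 1078 slower and 309 of 346 faster genes, against 75.7% of all 5069. The blocked fit calls genes whose changes agree between times, and the premature level was nearly shared by both times. These counts therefore follow in part from the calling. No gene of the 5069 passed for synthesis rate (0 called by limma with the block, 0.0% of those tested, with 299 at an unadjusted p under 0.05 and a smallest adjusted p of 0.733). Across genes, the change in processing rate had a rho of -0.879 with that of the premature level and of 0.333 with that of the synthesis rate.

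The 2 labelling times did not measure the premature level independently. In wild type the premature level was equal at 20 and 60 min to within 0.001 log2 units in 5069 of 5069 genes. In the knockout this held for 305, with a median absolute difference of 0.022 and with 116 genes over 0.5. The changes in premature level at 20 and 60 min had a rho of 0.995 across genes, against 0.205 for those in synthesis rate. The agreement of the processing rate between labelling times is therefore set largely by 1 premature level per genotype, and a small p of the blocked fit is no measure of how that level varies between cultures. The labels name 1 input library per genotype as a source of the rates, and how the level was derived is not given in the sources used here.

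Some of the genes that slowed most show this at the level of single libraries. In Anapc15 the premature level went from 0.0342, the same at both times, to 0.423 and 0.562, while the synthesis rate went from 0.600 and 0.175 to 0.150 and 0.135. In Tprgl the premature level went from 0.208 to 2.70 and 3.15, and in Pnma2 from 0.0677 to 0.926 and 0.875. Pnma2, which encodes a paraneoplastic antigen, had nearly equal synthesis rates in both genotypes, 2.29 and 2.14 against 1.92 and 2.23. In Ehbp1l1, Fam105a, Lonp1 and Ercc1 the knockout premature level differed by over 0.5 log2 units between times. That of Ehbp1l1 was 0.505 and 1.87, against 0.047 in wild type. Over the 12 slower genes the median change was 3.63 in premature level and -0.41 in synthesis rate. The synthesis rate was lower at both times in 10 of 12.

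The genes that sped up most had lower premature levels. In Sox8 the premature level went from 1.15 to 0.0979 and 0.101, while its synthesis rates of 3.13 and 3.61 compared with 3.07 and 3.52 for the knockout. In Gpr12 it went from 5.34 to 0.463 and 0.483. Sox8 and Gpr12 thus kept about the same listed synthesis rate while their premature level differed more than 10-fold. Unlike Sox8 and Gpr12, Ift52 also had a higher synthesis rate, at 0.415 and 0.473 against 0.129 and 0.334 for wild type. Over the 11 faster genes the median change in premature level was -3.50, and the synthesis rate was higher at both times in 7 of 11. In D17H6S56E-5, Polr3gl and Tmem191c the knockout premature level differed by over 0.5 log2 units between times.

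**Figure D3:**
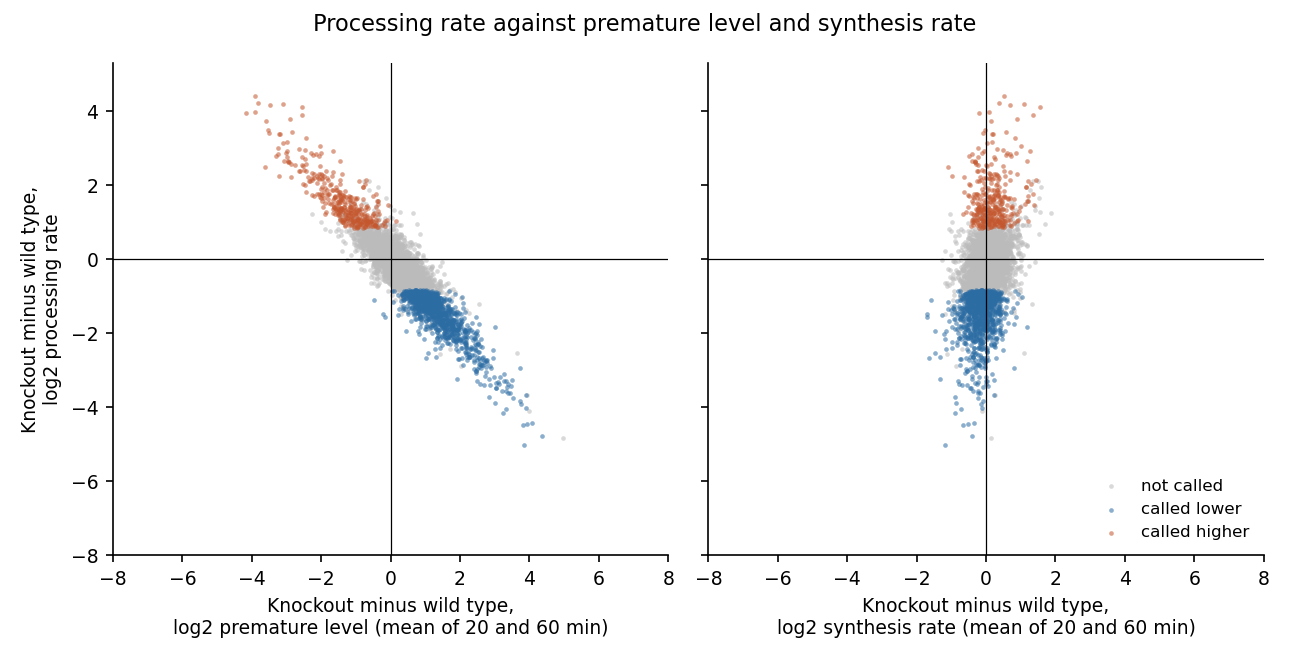
Log2 change in processing rate (vertical axis, knockout minus wild type) against the log2 change in premature level (left) and in synthesis rate (right), both as the mean of 20 and 60 min, for the 5069 genes with all rates. Blue and red mark genes called lower and higher in processing rate. The left cloud falls along a diagonal (rho = -0.879), while the right cloud stays within a narrow band around 0 on the horizontal axis (rho = 0.333).

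Calls were most frequent among genes with few intronic bases. Members were split into 4 equal groups by their summed intron bases in GENCODE M21, with medians of 5540, 16743, 39207 and 123274 bases. From the shortest to the longest group, 28.2%, 24.9%, 18.7% and 13.3% of genes were called slower. Faster calls fell more steeply, from 16.1% to 7.42%, 3.0% and 0.789%. The spread of the premature level change over genes narrowed in the same order, with an SD of 1.27, 0.940, 0.652 and 0.449 log2 units, whereas the SD of the synthesis rate change was 0.403, 0.364, 0.381 and 0.335. The median change in processing rate became lower from the shortest to the longest group, at -0.24, -0.36, -0.37 and -0.41, and the rank correlation across genes was weak, with rho of -0.08 with summed intron bases and -0.02 with the number of introns. Fewer intronic bases give fewer intronic reads at a given expression, and the part of this in the wider spread was not tested, since the table holds no counts. Without the group with the fewest intron bases, an alternative chosen after seeing the data, 706 slower and 138 faster genes passed by limma among 3800.

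**Figure D4:**
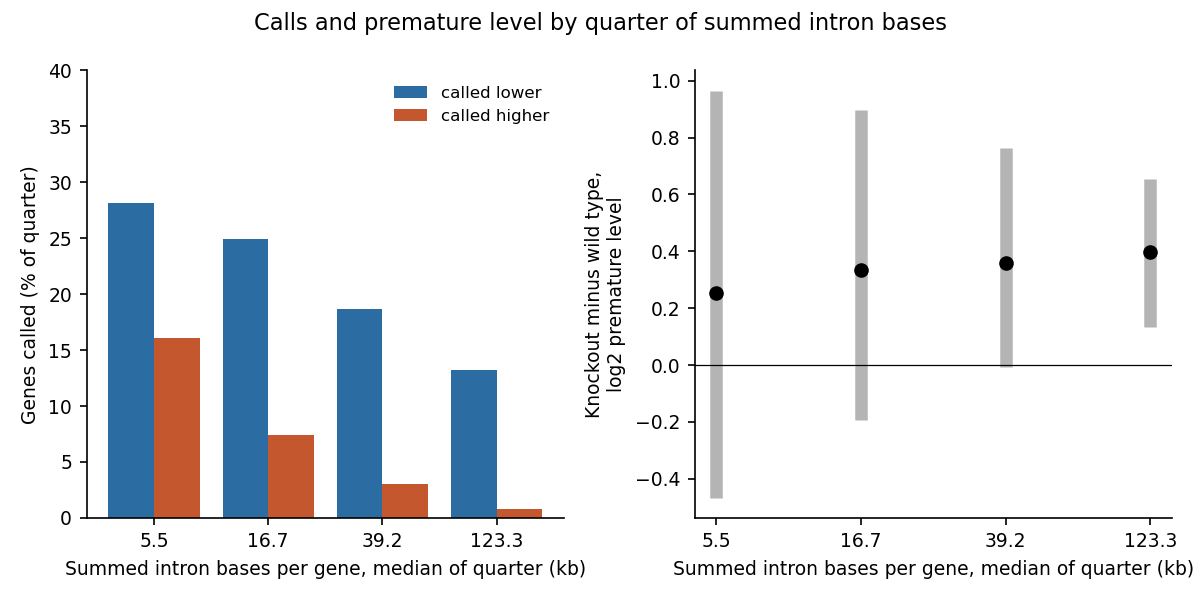
Members split into 4 equal groups by summed intron bases, with the median of each group in kilobases on the horizontal axis. The left panel gives the percentage of genes called slower (blue) and faster (red), which falls from 28.2% and 16.1% to 13.3% and 0.789%, and the right panel gives the median (point) and the middle 50% of genes (bar) of the log2 change in premature level.

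Genes processed fast in wild type were more often slower in the knockout. Between the lowest and the highest of 4 equal groups by wild-type processing rate, slower calls went from 11.4% to 37.0% and faster calls from 17.9% to 1.89%. The wild-type libraries enter both quantities, so an estimate that is high by error in wild type also gives a lower change, and the 2 sources of this pattern cannot be told apart with 1 library per genotype and time. Across genes the processing rates of the genotypes had a rho of 0.609 at 20 min and 0.786 at 60 min.

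Gene families were formed by symbol stem, for stems with at least 10 members tested. Of 53 families, 51 had a median change below 0, as did all members together. The 2 above it were Mrpl and Polr. Mrpl genes, which encode proteins of the large mitochondrial ribosomal subunit, had a median change of 0.61 over 20 genes, with 0.56 at 20 min and 0.66 at 60 min, and stayed above 0 after centring (0.95) and without any 1 library (0.30 to 0.82). The lowest of these medians came with wild type at 60 min (0.30) or knockout at 20 min (0.31) left out. Of the 20, 7 were faster (35.0%) and 3 slower (15.0%), against 6.84% and 21.2% of all genes. Mrps genes of the small subunit had a median of -0.53 over 15 genes with 1 faster (6.67%) and 3 slower (20.0%), close to the shares of all genes. That median was -0.19 with knockout at 60 min left out, -0.33 with wild type at 20 min left out and -0.19 after centring, and the difference between the subunits was not tested.

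Single Mrpl genes moved in both directions. Mrpl24 rose from 1.62 and 0.495 (20 and 60 min) to 6.47 and 6.19 (log2 change 2.82, SE 0.42, limma adjusted p = 0.0115). Mrpl38 rose from 2.44 and 2.61 to 10.7 and 8.85 (1.95, SE 0.25, limma adjusted p = 0.00846). Mrpl44 rose from 8.67 and 10.9 to 18.5 and 35.0 (1.38, limma adjusted p = 0.02). None of the 3 had overlapping groups. Mrpl2 fell from 11.7 and 8.41 to 2.12 and 2.17 (-2.21, SE 0.26, limma adjusted p = 0.00701) and Mrpl35 from 22.6 and 21.1 to 5.85 and 5.74 (-1.91, limma adjusted p = 0.0081). Over the full list of mitochondrial ribosomal proteins, 8 of 35 were faster (22.9%, against 6.84% of all genes) and 6 slower (17.1%, against 21.2%) with a median of -0.055, which lay above 0 after centring (0.29) and without the 60 min knockout library (0.11). It was -0.22 without either the 60 min wild-type or the 20 min knockout library.

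Polr genes, which encode subunits of the RNA polymerases, had a median change of 0.43 over 13 genes, with 4 faster (30.8%, against 6.84% of all genes) and 2 slower (15.4%, against 21.2%), and lay above 0 after centring (0.78) and without any 1 library. It was 0.15 with wild type at 60 min left out and 0.21 with knockout at 20 min left out, against 0.68 and 0.67 with wild type at 20 min and knockout at 60 min left out. Polr2l, a small subunit shared by the polymerases, rose from 2.33 and 0.902 to 17.1 and 6.30 (2.84, SE 0.23, limma adjusted p = 0.00489). Polr2j rose from 15.4 and 14.8 to 51.7 and 66.0 (1.95, SE 0.25, limma adjusted p = 0.0085). In the wider list of Mediator, general transcription factors and polymerase genes, 7 of 48 were faster (14.6%) and 13 slower (27.1%). After centring 7 were faster and 6 slower, against 7.92% and 7.55% of all genes. Among the genes of this list that passed, the largest fall was in Taf11, a subunit of TFIID, with 21.4 and 20.9 against 2.22 and 2.12 (-3.28, SE 0.23, limma adjusted p = 0.00449).

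The lowest family median was that of the Ccdc genes, a group that shares only a predicted coiled coil, at -0.95 over 20 genes with 10 slower (50.0%, against 21.2% of all genes) and 0 faster. After centring the median was -0.61 and 5 genes were slower. Zinc finger protein genes of the Zfp name had 42 of 134 slower (31.3%) and 10 faster (7.46%, against 6.84% of all genes) with a median of -0.56. After centring 21 were slower and 11 faster, with a median of -0.21. Over all genes 7.55% were slower and 7.92% faster after centring. Leaving out wild type at 60 min gave a median of -0.37. Zfp646 fell from 19.1 and 33.0 to 3.33 and 5.66 (-2.53, SE 0.23, limma adjusted p = 0.00525). Zfp358 went the other way, from 2.19 and 2.50 to 11.6 and 12.9 (2.38, SE 0.23, limma adjusted p = 0.00572). Both had separate groups. Zfp358 has 0 introns in GENCODE M21, so what its listed processing rate measures is uncertain.

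Genes of the splicing machinery itself were called in both directions. Of 35 spliceosome core genes tested (62 in the table), 12 were slower (34.3%, against 21.2% of all genes) and 5 faster (14.3%, against 6.84%), with a median of -0.65, which stayed below 0 after centring (-0.31) and without any 1 library. The slower calls outnumbered the faster ones by less after centring, at 7 against 6 (7.55% and 7.92% of all genes), and leaving out wild type at 20 min gave a median of -0.33. U2af1, which recognises the 3′ splice site, fell from 5.45 and 2.62 to 0.876 and 0.499 (-2.52, SE 0.24, limma adjusted p = 0.0055). Cwc25, a factor of the first catalytic step, fell from 46.3 and 154 to 7.90 and 20.5 (-2.73, SE 0.25, limma adjusted p = 0.00514). The groups were separate in both, although the labelling times of Cwc25 were far apart within each genotype. Slower calls also included Sf3a2 (-2.11), Snrpc (-2.08) and Prpf19 (-1.92). Snrpb, which encodes the core Sm protein B, rose from 0.0879 and 0.114 to 0.518 and 0.543 (2.40, SE 0.24, limma adjusted p = 0.00611). Its premature level went from 26.4 to 4.32 and 5.01. Prpf31 (1.25), Snrpa1 (1.04), Lsm6 (1.41) and Sf3b1 (1.03) were the other faster genes.

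Of 36 genes for SR proteins, hnRNPs and related RNA-binding proteins, which regulate splicing, 4 were slower (11.1%, against 21.2% of all genes) and 2 faster (5.56%, against 6.84%), with a median of -0.24 that lay above 0 after centring (0.11). Leaving out wild type at 20 min or knockout at 60 min gave medians of -0.024 and -0.033, whereas leaving out wild type at 60 min or knockout at 20 min gave -0.41 and -0.43. Srsf10 fell from 2.39 and 2.09 to 0.901 and 0.393 (-1.91, SE 0.32, limma adjusted p = 0.0144), while Srsf7 rose from 1.76 and 1.56 to 4.62 and 2.99 (1.16, SE 0.25, limma adjusted p = 0.028). Hnrnph2 rose from 3.61 and 1.62 to 10.2 and 10.6 (2.10, SE 0.35, limma adjusted p = 0.0144). In all 3 the groups were separate. Of 21 cleavage and polyadenylation genes, 6 were slower (28.6%, against 21.2% of all genes) and 0 faster, with the largest fall in Cpsf4 (-2.65). Of 25 RNA decay and export genes 5 were slower (20.0%) and 0 faster, near the share of all genes. After centring these lists had 1 and 0 slower genes, and 1 and 0 faster, where 7.55% and 7.92% of all genes were slower and faster.

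Of 25 cytosolic ribosomal protein genes, 12 were slower (48.0%, against 21.2% of all members) and 2 faster (8.0%). Their median change was -0.27 at 20 min and -0.92 at 60 min, -0.62 in the fit and -0.28 after centring. In the centred fit 5 genes were slower and 3 faster, against 7.55% and 7.92% of all genes. Leaving out knockout at 60 min gave a median of -0.24, and leaving out knockout at 20 min gave -1.12. Of the 59 such genes in the table only 25 had all 4 rates. Rpl14 fell from 17.3 and 19.7 to 4.39 and 2.67 (-2.43, SE 0.30, limma adjusted p = 0.00819). Rps19 fell from 13.7 and 6.41 to 2.79 and 1.64 (-2.13, SE 0.24, limma adjusted p = 0.00684). Rpl36 fell from 1.72 and 0.454 to 0.569 and 0.0854 (-2.00, SE 0.29, limma adjusted p = 0.0108), with overlapping groups, since its wild-type value at 60 min lay below its knockout value at 20 min. Rpl15 rose from 1.61 and 0.870 to 14.5 and 10.5 (3.39, SE 0.25, limma adjusted p = 0.00452), and Rpl23a from 2.29 and 0.884 to 5.74 and 4.77 (1.88, SE 0.33, limma adjusted p = 0.0166). Genes of this class have many processed pseudogenes, and how reads shared with these copies were counted is not given in the sources used here. Rpl23a also holds other annotated genes within it. Their introns are short, with a median sum of 2343 bases per gene.

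Translation factors and the proteasome gave mixed or shift-dependent counts. Of 27 initiation and elongation factor genes, 5 were slower (18.5%, against 21.2% of all genes) and 4 faster (14.8%, against 6.84%). After centring 3 were slower and 5 faster, against 7.55% and 7.92% of all genes. Eif2a fell from 13.5 and 14.6 to 0.868 and 1.80 (-3.49, SE 0.31, limma adjusted p = 0.00505), and Eif2s2, the beta subunit of eIF2, from 19.3 and 22.2 to 3.62 and 2.90 (-2.68, SE 0.26, limma adjusted p = 0.00562). Eif2b2 (2.37) and Eif3f (2.18) were the largest faster changes. Of 11 proteasome genes 5 were slower (45.5%), and 0 of them after centring. Psme3, an activator cap of the proteasome, rose from 9.43 and 7.48 to 22.3 and 20.6 (1.35, SE 0.24, limma adjusted p = 0.0165).

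Among genes of oxidative phosphorylation 9 of 34 were slower (26.5%) and 2 faster (5.88%), near the 21.2% and 6.84% of all genes, with a median of -0.62. After centring 4 were slower and 3 faster with a median of -0.27, where 7.55% and 7.92% of all genes were slower and faster. Leaving out knockout at 60 min gave a median of -0.11, and leaving out wild type at 20 min gave -0.39. Sdhd, a membrane anchor of succinate dehydrogenase, fell from 69.4 and 102 to 10.4 and 15.6 (-2.73, SE 0.23, limma adjusted p = 0.0049). Of 102 solute carrier genes, 25 were slower (24.5%, near the 21.2% of all genes) and 11 faster (10.8%, against 6.84%), while after centring 12 were slower and 11 faster. Slc12a4, given above, had the largest fall. Rab GTPase genes had 8 of 24 slower (33.3%, against 21.2% of all genes) and 0 faster, 6 of them also after centring (7.55% of all genes were slower then), while their median of -0.36 was that of all genes and lay above 0 after quantile normalization (0.038). Rab34 fell from 9.91 and 5.04 to 1.32 and 0.861 (-2.73, SE 0.25, limma adjusted p = 0.00514).

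The lists of ion channels and of transmitter receptors held no gene called faster. Of 31 potassium channel genes, 11 were slower (35.5%, against 21.2% of all genes) and 0 faster, with a median of -0.44. After centring 6 were slower and 0 faster, against 7.55% and 7.92% of all genes. The median was -0.73 without either the 60 min wild-type or the 20 min knockout library. Kcnj9, a G protein-gated inward rectifier, fell from 8.41 and 3.78 to 1.20 and 0.693 (-2.63, SE 0.25, limma adjusted p = 0.00528). Kcna2, a delayed rectifier of axons, fell from 4.70 and 5.89 to 0.708 and 1.09 (-2.58, SE 0.24, limma adjusted p = 0.00528). Kcnv1, a modifying subunit, fell from 52.5 and 73.6 to 14.8 and 18.8 (-1.90, SE 0.24, limma adjusted p = 0.00819). In these 3 genes the groups were separate. All 11 slower channel genes had a higher premature level at both times, as did 1075 of the 1078 slower genes in all. Of 20 sodium and calcium channel genes 4 were slower (20.0%) and 0 faster, of 8 glutamate receptor genes 1 (12.5%) and 0, of 6 GABA receptor genes 0 and 0, and of 10 postsynaptic scaffold genes 1 (10.0%) and 0. Apart from the potassium channels, these shares of slower genes lay below the 21.2% of all members, and after centring these lists had 0 slower genes.

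**Figure D5:**
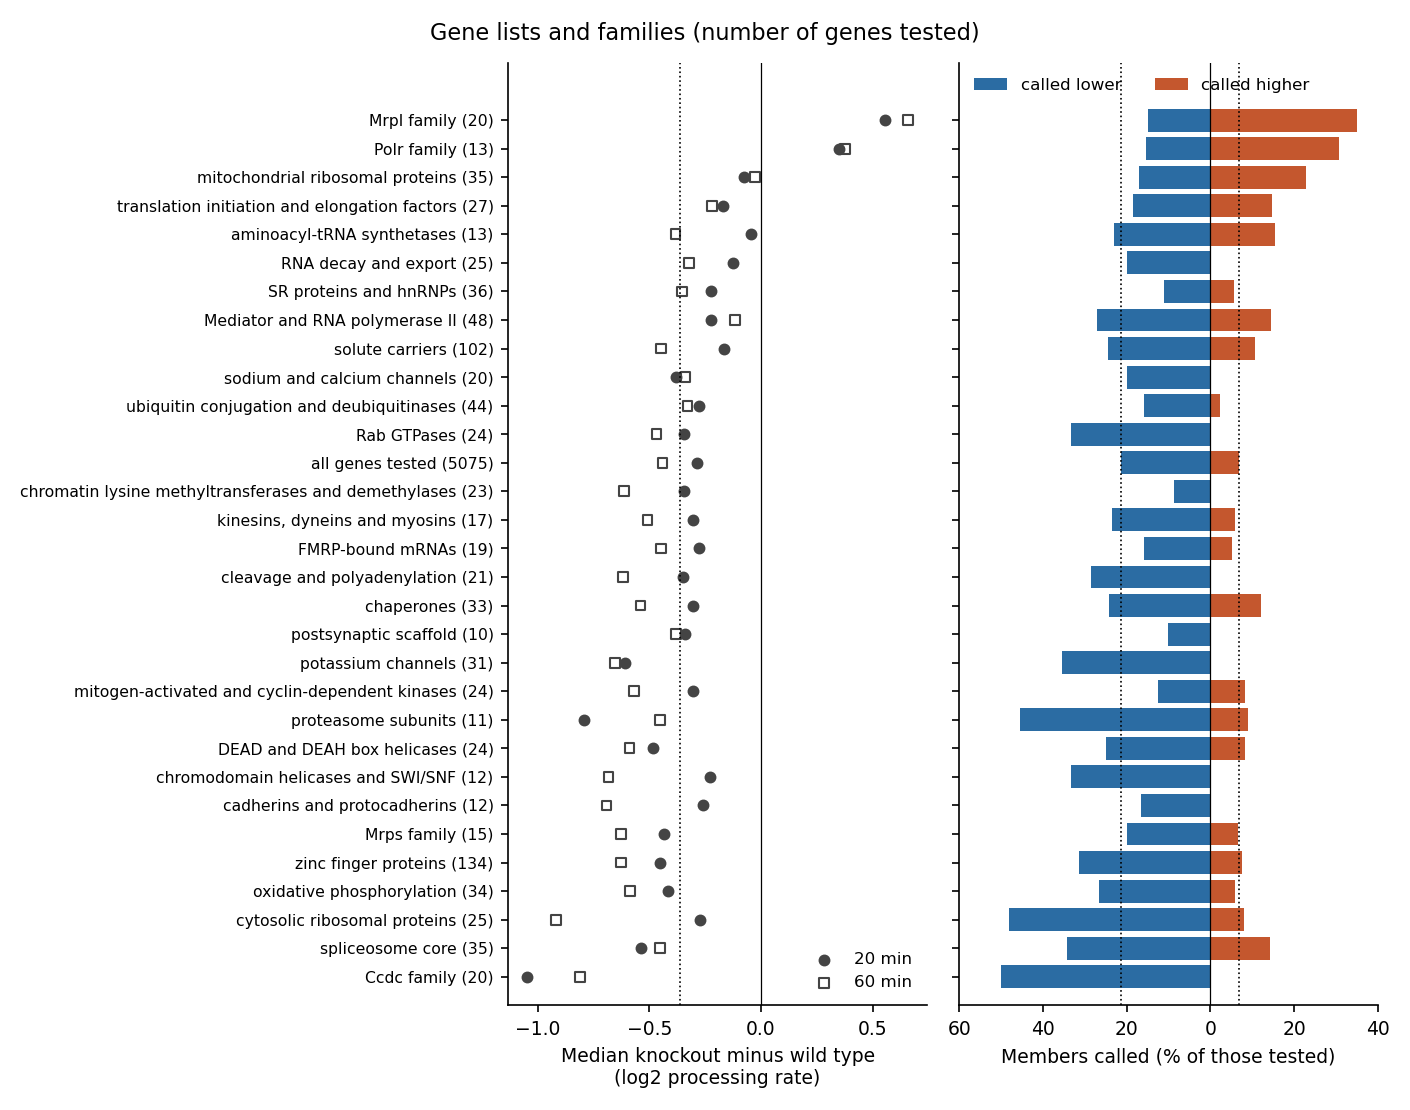
Gene lists with at least 10 genes tested, and 4 of the symbol families, ordered by the fitted median change (number tested in brackets). The left panel gives the median log2 change in processing rate at 20 min (filled circles) and 60 min (open squares), with a dotted line at the fitted median of all genes, -0.36. The right panel gives the percentage of members called slower (blue, to the left) and faster (red, to the right), with dotted lines at 21.2% and 6.84% of all genes, and shows Mrpl and Polr alone above 0 at both times.

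The vesicular transporters Slc17a6 and Slc32a1, which mark excitatory and inhibitory neurons, changed in opposite directions. Slc17a6, the vesicular glutamate transporter VGLUT2, rose from 13.4 and 20.6 to 26.0 and 46.0 (1.06, SE 0.24, limma adjusted p = 0.0304). Neurod6, a transcription factor of cortical excitatory neurons, rose from 15.6 and 18.0 to 29.6 and 37.7 (1.00, SE 0.24, limma adjusted p = 0.0343). Slc32a1, the vesicular GABA transporter, fell from 26.3 and 17.3 to 7.41 and 4.52 (-1.88, SE 0.24, limma adjusted p = 0.00819). In each the groups were separate. The synthesis rate of Neurod6 was 14.2 and 16.3 for wild type against 10.2 and 13.1 for the knockout, and that of Slc32a1 was 3.54 and 2.33 against 3.47 and 2.23. Only 4 of 18 neuronal and 3 of 13 interneuron markers were members. The neuronal markers Rbfox3 (-0.63) and Tbr1 (0.69) did not pass, nor did the interneuron markers Lhx6 (-0.62) and Dlx1 (0.049).

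Of 19 genes on a short list recalled from crosslinking studies, 3 were slower (15.8%, against 21.2% of all genes) and 1 faster (5.26%, against 6.84%), with a median of -0.38 that was -0.028 after centring and 0.0075 after quantile normalization. Leaving out knockout at 60 min gave -0.067 and leaving out wild type at 20 min gave -0.21, against -0.69 with either of the other 2 left out. The median of all genes was -0.36. Nlgn3, a postsynaptic adhesion protein, fell from 18.7 and 15.9 to 9.37 and 7.53 (-1.04, SE 0.23, limma adjusted p = 0.0309). Tsc2, a brake on mTOR signalling, rose from 9.70 and 2.30 to 19.5 and 5.24 (1.10, SE 0.24, limma adjusted p = 0.0273), with overlapping groups. Kcnt1, a sodium-activated potassium channel that is also on the channel list, went from 7.66 and 0.948 to 2.75 and 0.260 (-1.67, SE 0.25, limma adjusted p = 0.0113). Its groups overlapped too, and without the 60 min knockout library its fitted change was 0.027. Of the 7 relatives and partners of FMRP, which besides Fxr1 were Ago2, Caprin1, Nufip2, Ythdf1, Ythdf2 and Ythdf3, 0 passed by limma with the block.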

How the data were processed

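The rate table that the authors deposited holds linear rates of each gene in the 4 labelled libraries, with no time unit stated per the file headers. They also deposited 1 table per rate comparing the genotypes, in which log2 fold changes and p-values stand as limma writes them, per the file headers. The submitters' processing notes name cutadapt, Bowtie2, TopHat2, HISAT2 and limma and the builds mm10, dm6 and sacCer3. How fly and yeast spike-ins (10% by weight each) entered the rates is not given in the sources used here. The 4 columns of degradation rates were not used.

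Processing rates above 0 and under 1000 in all 4 labelled libraries were log2-transformed and fitted with limma (version 3.58.1, R 4.3.3): genotype plus labelling time as block, eBayes, Benjamini-Hochberg adjustment over 5075 genes, threshold 0.05, two-sided. The pairing by labelling time comes from the labels. Across genes, the 20 against 60 min differences of both genotypes had a Pearson r of 0.701 (Spearman 0.735). The fit was tested on simulated data with independent noise in each library. That test does not cover a premature level shared by both labelling times. Premature level was synthesis over processing rate, untested. Alternatives were no block, centring, quantile normalization, low-rate and upper-limit filters, a pseudocount of 1.99, eBayes trend and robust, a threshold of 0.01, leaving out each library, and the deposited table. Leaving out genes with few intron bases, overlapping genes or unequal knockout premature levels was added after seeing the data.

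Named genes were the 12 slower and 12 faster with the largest smaller-of-2 differences among genes called in the blocked and the centred fit (Gm, Rik and mt- symbols passed over), up to 3 called members per list, and the Fmr1 family; 1 of the faster genes and 1 marker are not reported here. Eif3f, Lsm6, Mrpl38, Mrpl44, Prpf19, Prpf31, Rpl23a, Rpl36, Sf3a2, Sf3b1, Snrpa1, Snrpc, Olig2, Rbfox3, Tbr1, Lhx6 and Dlx1 were named after their values were seen. Members and lists were chosen with earlier results of these data known. Of the members, 5069 (99.9%) matched GENCODE M21 by symbol.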

Additional observations from a re-analysis of the deposited data

Results flagged for a closer look

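In 4 results the 2 labelling times gave medians of opposite sign, with 1 library per genotype at each time; the difference between the times was not tested in any of them. The 11 genes whose symbols begin with Rps and a digit, which include Rps6k kinases beside ribosomal proteins of the small subunit, had a median log2 change in processing rate of 0.028 at 20 min and -0.64 at 60 min, a difference of 0.67. The 11 Nup genes of the nuclear pore had 0.12 and -0.38, a difference of 0.50. The 5 genes of the V-ATPase proton pump had -0.085 and 0.0061, a difference of -0.091. The median change in synthesis rate over the 5069 genes was 0.042 at 20 min and -0.083 at 60 min, a difference of 0.13.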

How the results depend on the processing

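The median change in processing rate of -0.36 stayed below 0 under the alternatives that do not equalise the libraries. It moved by more than the spread between labelling times after centring (-0.015) and quantile normalization (-0.012), which set it near 0 by construction. The median change in premature level, 0.35, went to -0.010 after centring, for the same reason. Leaving out 1 library, which leaves an unblocked fit in which the lone sample is assumed to vary like the others, gave medians from -0.29 to -0.40.

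The block decided the calls: without the replicate block 0 genes passed by limma, 0 slower and 0 faster, as in the authors' deposited table. Leaving out 1 library gave 0 to 219 calls, 0 to 170 slower and 0 to 65 faster, of which at most 208 were among the 1425. The lowest counts came without the 20 min (0) and the 60 min (7) wild-type library, against 171 and 219 when the 60 and the 20 min knockout library was left out. Of the 23 genes described with the largest changes, 0 and 5 passed without these wild-type libraries and 21 and 23 without these knockout libraries. Centring gave 785 calls with 383 slower, quantile normalization 602 with 298 slower, and a threshold of 0.01 gave 306, 217 slower and 89 faster. Leaving out the 25% of genes with the fewest intron bases gave 844 (706 slower, 138 faster), and leaving out overlapping genes 753 (578 slower, 175 faster). Leaving out genes whose knockout premature level differed by over 0.5 between times, also chosen after seeing the data, gave 1520. The other filters, the pseudocount, the trend and the robust fit gave 1300 to 1709. Kcnt1 changed sign without the 60 min knockout library and ranged from -3.38 to 0.027 over the libraries left out. Without 1 library, 6 of 33 lists and 7 of 53 families changed the sign of their median; centring left 14 lists and 27 families above 0. Synthesis rate had 0 calls by limma with and without the block, after centring or quantile normalization, without any 1 library and in the authors' deposited table. The remaining fits were made for processing rate only. Depth is not given, so what it limits could not be judged.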

Other observations

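Of 23 genes for lysine methyltransferases and demethylases, 2 were slower (8.70%, against 21.2% of all members) and 0 faster by limma with the block, and of 12 chromodomain and SWI/SNF genes 4 were slower (33.3%) and 0 faster, none of these 4 after centring. Ezh1, a histone H3 lysine methyltransferase of Polycomb, had processing rates of 29.4 and 11.5 for wild type (20 and 60 min) against 2.75 and 1.27 for the knockout (log2 change -3.30, SE 0.24, limma adjusted p = 0.00449). Its premature level went from 0.0189 to 0.0955 and 0.119, and its synthesis rates from 0.555 and 0.218 to 0.263 and 0.152. The groups were separate in processing rate. The 5 immediate-early genes tested had a median change above 0, at 0.26, which was 0.61 after centring, -0.061 with wild type at 20 min left out and -0.036 with knockout at 60 min left out. Of these genes 3 were higher at both times, 0 passed as faster, and 1 was slower (20.0%, against 21.2% of all members). That gene, Dusp1, a phosphatase of MAP kinases, fell from 32.8 and 23.6 to 14.7 and 14.1 (-0.95, SE 0.25, limma adjusted p = 0.0432) and did not pass after centring.

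Of 3 markers of dividing progenitors tested, 1 was faster. Mcm7, a subunit of the replicative helicase, rose from 0.802 and 1.60 to 9.05 and 8.47 (2.95, SE 0.33, limma adjusted p = 0.00668), while Mcm5 (-0.057) and Nes (-0.028) did not pass, and Mcm7 overlaps other annotated genes. Kif22, a mitotic kinesin, rose from 2.57 and 1.76 to 13.7 and 15.9 (2.80, SE 0.29, limma adjusted p = 0.00611). Of 36 long non-coding or antisense genes, 6 were faster (16.7%) and 7 slower (19.4%), with a median of 0.012. Snhg11, named as a snoRNA host gene but typed as protein coding in GENCODE M21 and so outside that count, rose from 0.134 and 0.0935 to 0.362 and 0.314 (1.59, SE 0.24, limma adjusted p = 0.0121). Of 125 members on chromosome X, 29 were slower (23.2%) and 7 faster (5.6%), near the 21.2% and 6.84% of all members.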
